A study of Sus scrofa with 6 samples.

Results

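Deciduous premolar germs were compared with deciduous incisor germs of miniature pig embryos at embryonic day 40, on the single array that carried both RNAs. It is 1 of the 6 arrays of a study that hybridised 12 RNAs in pairs, 1 RNA for each of 4 tooth types at days 40, 50 and 60. The premolar RNA (QMY40) was stained with Cy5 and the incisor RNA (QY40) with Cy3, per the labels. No treatment or genotype was named for either RNA. The labels give 1 biological replicate per condition, dissected under a microscope, and do not state how many embryos each RNA represents. All comparisons below therefore set 1 RNA against 1 RNA. Spread is given as the SD over the 4 spots of a probe, which measures the array and not the animals, and no test was made. Tooth type and dye cannot be told apart on 1 array. In whole germs, fewer cells of a type and less RNA per cell cannot be told apart either.

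A tooth germ is an epithelial organ, which forms enamel, folded around a condensed mesenchyme, which forms dentine and pulp. Incisors develop as simple teeth at the front of the jaw and premolars as cusped teeth further back. MicroRNAs are short RNAs that guide repression of messenger RNAs, mainly through their seed, bases 2 to 8 of the mature strand. Several are typical of a cell lineage. In mammals, miR-1, miR-133 and miR-206 are skeletal muscle miRNAs, miR-205 and the miR-200 family are epithelial, miR-126 is endothelial and miR-451 belongs to red blood cells. A large group is transcribed from the imprinted DLK1-DIO3 region, from the maternal chromosome.

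The array held 742 probes with 4 spots each. Of these, 188 were named as mature pig miRNAs (ssc-), 193 carried another miR name, 157 a PN name and 204 a PC name, and the labels do not explain the last 2 prefixes. The target sequences of the probes on which the comparison turned are given as deposited, 5′ to 3′, with bases 2 to 8 of each target in capitals. Where a target does not begin at the first base of the mature strand, the capitals are not its seed. The first set is shown because 4 overlapping miR-133 probes gave the highest ratios, beside miR-206, the other muscle miRNA measured in the premolar.
ssc-miR-133b: uUUGGUCCccuucaaccagcuau
ssc-miR-133a: uUGGUCCCcuucaaccagcug
miR-133a-3p-1466: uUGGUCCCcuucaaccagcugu
miR-133b-3p-56920: uUUGGUCCccuucaaccagcuguuu
ssc-miR-206: uGGAAUGUaaggaaguguguga
The 4 miR-133 targets shared runs of 20 to 22 bases with each other, so they are not independent measurements. As deposited, the targets named miR-133b begin with a further u, so bases 2 to 8 read UUGGUCC there and UGGUCCC in those named miR-133a. That shift comes from where the targets begin. The target of miR-133b-3p-56920 contained all 22 bases of that of miR-133a-3p-1466, so its name does not set it apart from miR-133a.

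The second set holds the other probes that were higher in the premolar and are described in detail, and a pair of DLK1-DIO3 probes that shared a run of 20 bases.
miR-126-3p-3530: cGUACCGUgaguaauaaugcg
miR-451-5p-792: aAACCGUUaccauuacugaguuu
ssc-miR-127: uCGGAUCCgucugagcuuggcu
ssc-miR-125b: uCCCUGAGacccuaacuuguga
ssc-miR-504: aGACCCUGgucugcacucuaucu
PN-300-3p-13997: uAUACAAGgacaagcucucu
PN-381-3p-1991: uAUACAAGgacaagcucucugu
The last set holds the probes lower in the premolar, with the other miR-218-5p probe for comparison.
miR-218-5p-18206: gGUGGAACgauggaaacggaac
miR-218-5p-53526: uUGUGCUUgaucuaaccaugug
PN-203-3p-308: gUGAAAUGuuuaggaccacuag
miR-138-5p-826: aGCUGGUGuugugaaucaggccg
PC-138-5p-9675: aGCUGGUGuugugaaucaggccga
The pair named miR-218-5p shared no run longer than 3 bases, so they measured different RNAs under the same name. The name alone therefore does not make a value of miR-218-5p-18206 one of miR-218. The pair named miR-138-5p shared 23 bases.

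Values are background-corrected, normalised log2 intensities, and a ratio is premolar minus incisor on that scale. A probe was taken as detected if its mean exceeded the local background by 3 SD of blank-spot values. The premolar RNA gave 354 detected probes and the incisor RNA 646, with 353 in common. The single probe detected in the premolar alone was ssc-miR-206. The Cy3 column had more detected probes than the Cy5 column on the 5 arrays whose column and dye agree in the labels, 462 to 732 against 266 to 402. The part of the dye in that gap was not tested. Blank spots read a median density of 39.2 in the premolar column and 142 in the incisor column. Spike control oligos with a mean level of at least 8 had ratios between -1.05 and 2.81, and 6 of these 23 were at least 2-fold apart. The labels do not state how much spike was added to each RNA. The 4 probes for 5S ribosomal RNA had ratios between -0.36 and -0.17.

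Among the 647 probes detected in at least 1 RNA, the median ratio was -0.01, with quartiles of -0.08 and 0.10, and 90.6% lay within 1.5-fold. The normalisation centres these ratios, and 457 of the 647 had a mean level below 7, where the offset added before the logarithm compresses ratios, so this share does not measure how alike the germs are. The median spot SD of a ratio was 0.10 among them, and 95% of them had a spot SD of at most 0.21. The ratio kept 1 sign in all 4 spots for 297 probes, positive for 147 and negative for 150. Under a size rule of at least 2-fold with 1 sign in all 4 spots, 18 probes were higher in the premolar (2.78%) and 4 lower (0.618%), together 3.4% of the 647. The 18 comprised 5 mature pig probes, 6 with another miR name and 7 PN probes. The 4 lower ones comprised 2 with another miR name, 1 PN and 1 PC probe, and no mature pig probe. Of 457 probes with a mean level below 7, 2 met the rule, against 10 of 67 between 7 and 8 and 9 of 77 between 8 and 10.

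**Figure D1:**
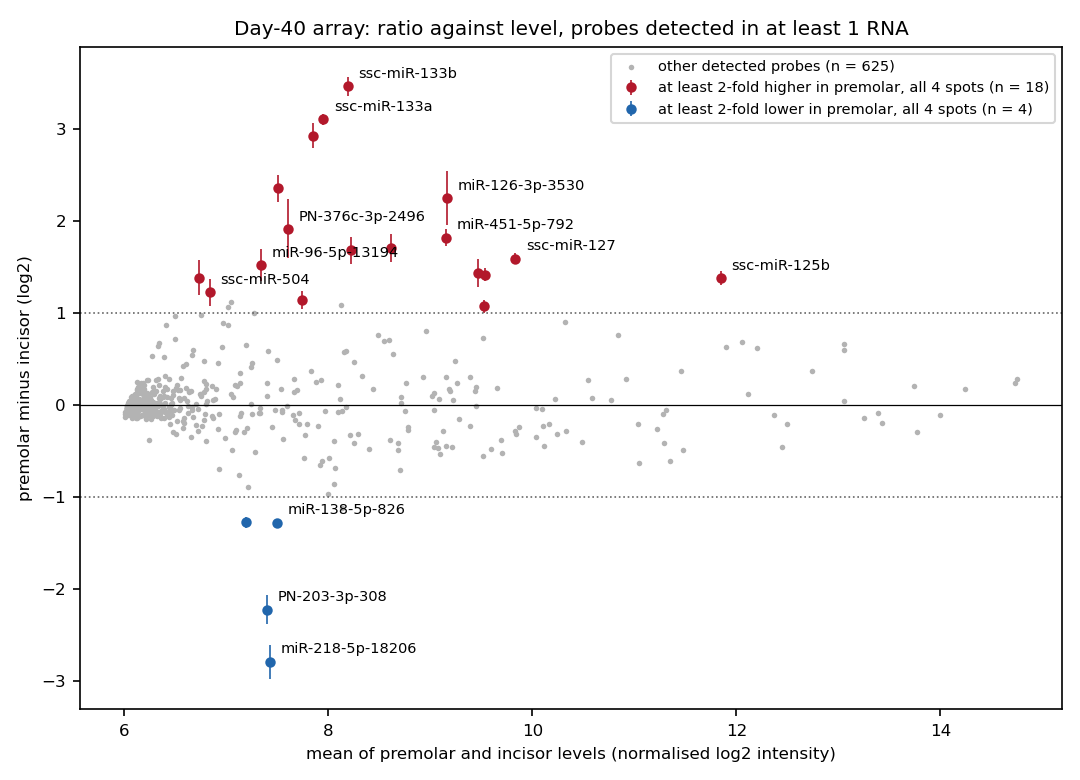
Premolar minus incisor log2 ratio (vertical axis) against the mean of both levels (horizontal axis, normalised log2 intensity) for the 647 probes detected in at least 1 RNA. Red points (18) and blue points (4) met the 2-fold rule in all 4 spots, bars are SDs over 4 spots, and dotted lines mark 2-fold. The miR-133 probes stand highest, at ratios up to 3.46.

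The overlapping probes for miR-133, one of the skeletal muscle miRNAs, gave the largest difference. Probes for miR-133a and miR-133b, which in mammals restrain and shape myoblast growth and differentiation, were higher in the premolar by log2 ratios of 2.35 to 3.46. The ssc-miR-133b probe read densities of 747, 745, 732 and 869 in the premolar spots, against 176, 175, 202 and 211 in the incisor spots. Incisor spots lay not far above the blank median of that column, while every premolar spot was far above its own. After correction its levels were 9.87, 9.87, 9.85 and 10.09 in the premolar and 6.37, 6.32, 6.53 and 6.63 in the incisor, a ratio of 3.46 ± 0.10 (SD, 4 spots). For ssc-miR-133a, levels were 9.44, 9.50, 9.47 and 9.60 in the premolar and 6.34, 6.47, 6.33 and 6.46 in the incisor, a ratio of 3.10 ± 0.05. For these probes, and others past the 2-fold rule below, separate premolar and incisor spots follow from that rule and are not a further result. The 2 longer forms had ratios of 2.93 ± 0.14 for miR-133a-3p-1466 and 2.35 ± 0.15 for miR-133b-3p-56920.

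The other muscle miRNAs were dim. For ssc-miR-206, which promotes myoblast differentiation, levels were 6.73, 6.92, 6.64 and 7.06 in the premolar and between 5.92 and 6.01 in the incisor, where the probe was not well above background. Its spots did not overlap between the RNAs, and against the lowest detected incisor level the premolar was at least 1.78-fold higher. PN-1-3p-13186 shared a run of 20 bases with miR-206 and had a ratio of 0.68 ± 0.12. The mature pig probe ssc-miR-1 was detected in neither RNA, with mean levels of 5.92 in the premolar and 5.93 in the incisor. The passenger strand ssc-miR-133a* had a ratio of 0.25 ± 0.09, while the cardiac and slow-fibre miRNAs ssc-miR-208b and ssc-miR-499 were not well above background in the premolar and had ratios of -0.01 and -0.03. Over the 9 detected probes of the muscle list the median ratio was 0.87, against -0.01 over all detected probes, and 4 were higher (44.4%, against 2.78% of all detected probes) and none lower by the 2-fold rule. Those 4 are the overlapping miR-133 probes. In RefSeq Sscrofa11.1, MIR206 and MIR133B lie within 10 kb of each other.

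**Figure D2:**
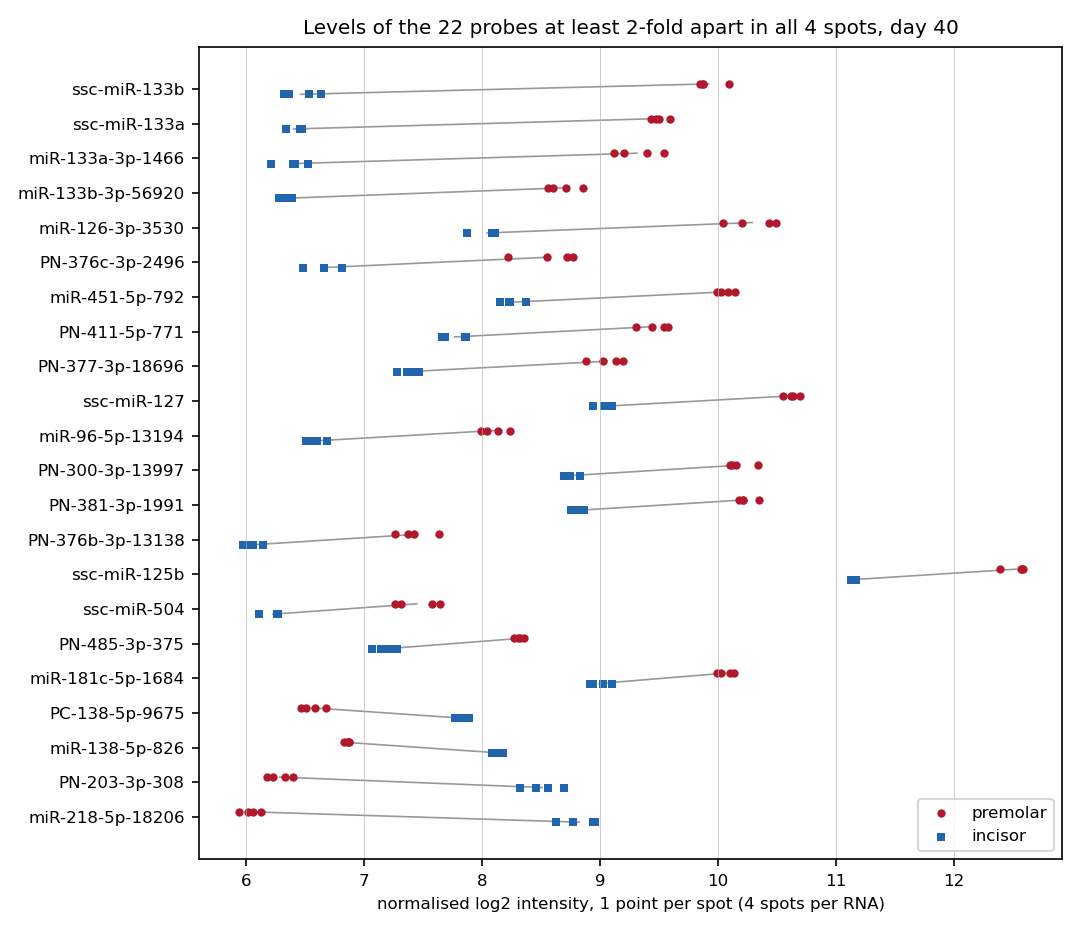
Normalised log2 intensity (horizontal axis) of the 22 probes that met the 2-fold rule, 1 point per spot, with premolar spots as red circles and incisor spots as blue squares. Premolar and incisor spots do not overlap for any of the 22, and ssc-miR-125b is the brightest. The 22 were chosen for a ratio of at least 2-fold in each spot, so this separation is not a further result.

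Of the 18 higher probes, 8 carried names of DLK1-DIO3 miRNAs, which had 67 detected probes on the array, and none of the 4 lower ones did. That is 11.9% of the 67, against 2.78% of all detected probes. The region gives rise to a cluster antisense to RTL1, which includes miR-127, and to a longer cluster from miR-379 to miR-410. For ssc-miR-127, an RTL1-antisense miRNA, levels were 10.64, 10.55, 10.69 and 10.62 in the premolar and 9.10, 8.94, 9.03 and 9.08 in the incisor. The ratio was 1.59 ± 0.06, or 3.01-fold. Its opposite arm, miR-127-5p-12072, was not well above background in the premolar and had a ratio of 0.01. The neighbouring miR-432 was dim, with a ratio of 0.22 ± 0.11 for ssc-miR-432, and ssc-miR-136 was detected in neither RNA. MIR127, MIR432 and MIR136 follow each other within 10 kb steps in RefSeq Sscrofa11.1.

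In the longer cluster, 7 of 57 detected probes were higher by the 2-fold rule, all PN probes, which is 12.3% against 2.78% of all detected probes. PN-376c-3p-2496 had the largest ratio and the widest spots among them, with levels of 8.22, 8.72, 8.77 and 8.55 in the premolar and 6.66, 6.65, 6.48 and 6.81 in the incisor (1.91 ± 0.32). PN-411-5p-771 had a ratio of 1.70 ± 0.15 and PN-377-3p-18696 of 1.68 ± 0.15. PN-381-3p-1991 was brighter, with levels of 10.18, 10.22, 10.35 and 10.21 in the premolar and 8.82, 8.75, 8.86 and 8.86 in the incisor (1.42 ± 0.07). PN-300-3p-13997, whose target is contained in that of PN-381-3p-1991, had a ratio of 1.43 ± 0.15 and counts as the same measurement. PN-376b-3p-13138 and PN-485-3p-375 completed the 7 with ratios of 1.38 ± 0.19 and 1.14 ± 0.10. Among mature pig probes of the cluster, ssc-miR-758 had a ratio of 1.07 ± 0.19 and ssc-miR-376a of 0.96 ± 0.15, each short of 2-fold in at least 1 spot.

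Most probes of the longer cluster did not meet the rule. Of the 57 detected, 48 had a ratio above 0 (43.9% over all 647), and the median was 0.14, against -0.01 over all. Only 32 of the 57 were detected in the premolar, and the others were not well above background there. With the blank median subtracted in place of the background surface, the cluster's median relative to all detected probes was 0. That setting floors both RNAs at a density of 20, which gives probes dim in both equal values, and the median of all detected probes was 0 too. This 0 therefore does not describe the cluster. PN-494-3p-3917, at mean levels of 10.68 in the premolar and 10.41 in the incisor, had a ratio of only 0.27 ± 0.20 although it was the brightest of the named members.

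Of 8 detected probes for miRNAs of vessels and blood, 2 were higher by the 2-fold rule, against 2.78% of all 647 detected probes. The median of the 8 was 0.02. For miR-126-3p-3530, the endothelial miRNA that sustains vessel integrity, levels were 10.49, 10.04, 10.43 and 10.20 in the premolar and 7.87, 8.09, 8.11 and 8.10 in the incisor. Its ratio was 2.25 ± 0.29, or 4.75-fold, and this was among the wider spot SDs. For miR-451-5p-792, a miRNA of red cell maturation, levels were 10.08, 9.99, 10.15 and 10.03 in the premolar and 8.37, 8.23, 8.24 and 8.15 in the incisor, a ratio of 1.82 ± 0.09. The other 6 detected probes of that list had ratios between -0.02 and 0.17. The opposite arm miR-126-5p-1328 had a ratio of 0.02, the probe miR-144-3p-40226, whose gene MIR144 neighbours MIR451 within 10 kb in RefSeq Sscrofa11.1, had 0.00, and ssc-miR-486 had 0.00. Each of these was not well above background in the premolar. The part of vessel and blood content in other results was not tested.

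At mean levels of 10 and above, ssc-miR-125b alone met the 2-fold rule. This relative of lin-4 of worms, active in differentiation, had levels of 12.58, 12.39, 12.59 and 12.57 in the premolar and 11.16, 11.13, 11.17 and 11.17 in the incisor. The ratio was 1.38 ± 0.07, or 2.59-fold, and it was among the 5 brightest mature pig probes of the premolar but not of the incisor. The related ssc-miR-125a, which has the same seed and shared a run of 13 bases, had a ratio of 0.09 ± 0.09. The ssc-miR-99a probe lay just outside the rule, at 1.08 ± 0.17 with a lowest spot of 0.90. Its RefSeq neighbour is MIRLET7C, whose probe ssc-let-7c had a ratio of 0.16 ± 0.14. The let-7 family, general brakes on proliferation, had ratios between -0.11 and 0.16 over 8 detected probes.

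Among the remaining higher probes, ssc-miR-504, known to target p53 messenger RNA in human cells, had levels of 7.31, 7.57, 7.26 and 7.64 in the premolar and 6.26, 6.26, 6.11 and 6.27 in the incisor (1.22 ± 0.15). A second probe, miR-504-5p-623, shared 22 bases with it and had a ratio of 0.97 ± 0.14. For miR-96-5p-13194, a miRNA of sensory epithelia, the ratio was 1.52 ± 0.17. Its RefSeq neighbours in the same cluster did not share it, with ratios of -0.02 for ssc-miR-183 and -0.12 for miR-182-5p-1627. For miR-181c-5p-1684, of a family known from lymphocyte and muscle differentiation, the ratio was 1.07 ± 0.07. All 11 detected probes with the miR-181 seed ACAUUCA had ratios above 0, against 43.9% of all 647 detected probes. They ran from 0.04 to 1.07 with a median of 0.37. On day 60, premolar against incisor, all 11 had ratios below 0 (47.5% over all detected probes), from -0.43 to -0.08 with a median of -0.31. Targets of these probes overlap, as those of ssc-miR-181a and miR-181a-5p-39722 with a shared run of 17 bases, so they are not independent measurements. The difference between the days was not tested. Among the 11, on day 40, ssc-miR-181a had a ratio of 0.90 ± 0.12, ssc-miR-181c of 0.76 ± 0.14 and ssc-miR-181d of 0.04 ± 0.16.

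Of the 4 probes lower in the premolar, PN-203-3p-308 carried the name of miR-203, which in mouse skin drives epithelial cells out of the proliferative state. Its levels were 6.23, 6.18, 6.33 and 6.39 in the premolar and 8.69, 8.32, 8.46 and 8.56 in the incisor. The ratio was -2.23 ± 0.16, which is 4.68-fold higher in the incisor. For miR-138-5p-826, known from neurons and from limiting bone formation by human stromal cells, levels were 6.87, 6.83, 6.87 and 6.85 in the premolar and 8.14, 8.09, 8.18 and 8.14 in the incisor, a ratio of -1.28 ± 0.02. PC-138-5p-9675, with 1 more base at the end, gave -1.28 ± 0.06. The lowest ratio belonged to miR-218-5p-18206, at -2.79 ± 0.19, with levels of 5.94, 6.01, 6.13 and 6.05 in the premolar, where it was not well above background, and 8.96, 8.78, 8.94 and 8.62 in the incisor. As a bound, the incisor was at least 6.31-fold higher. The unlike probe of the same name, miR-218-5p-53526, had a ratio of 0.10 ± 0.10, so the lowest ratio cannot be taken as that of miR-218.

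Below 2-fold, the rule at 1.5-fold in all 4 spots listed 33 probes as higher (5.1% of 647) and 11 as lower (1.7%), together 6.8%. Among mature pig probes it listed 13 as higher and 4 as lower. The 4 were ssc-miR-15a (-0.97 ± 0.16), ssc-miR-222 (-0.89 ± 0.20), a promoter of cell cycle entry, ssc-miR-1307 (-0.76 ± 0.09) and ssc-miR-17-5p (-0.68 ± 0.06), of the proliferative miR-17 cluster. The 3 mature probes nearest the 2-fold rule on its inner side were ssc-miR-504, ssc-miR-125b and ssc-miR-127, with least spot ratios of 1.05, 1.26 and 1.54. On its outer side were ssc-miR-758, ssc-miR-99a and ssc-miR-181a, with least spot ratios of 0.92, 0.90 and 0.82.

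The tissue markers of a tooth germ were present in both RNAs. For ssc-miR-205, the epithelial miRNA, levels were 10.15, 10.36, 10.15 and 10.45 in the premolar and 10.79, 10.62, 10.61 and 10.72 in the incisor, a ratio of -0.41 ± 0.18. Of the 16 detected epithelial probes, 12 had ratios below 0 (56.1% over all 647 detected probes), with a median of -0.07. PN-203-3p-308 alone met the 2-fold rule (3.4% over all 647). PN-200a-3p-145 went the other way, at 0.28 ± 0.06. For ssc-miR-214, a miRNA of skeletal and dermal mesenchyme, levels were 12.81, 12.35, 12.59 and 12.29 in the premolar and 12.13, 11.72, 11.88 and 11.86 in the incisor, a ratio of 0.62 ± 0.13. Of 23 detected mesenchymal probes, 12 had ratios above 0 (43.9% over all 647) and none met the rule. Only 14 of the 23 were detected in the premolar. The ssc-miR-199a-5p probe stood at -0.24 ± 0.35, within its spot SD of 0. The 4 detected Hox-cluster probes were not well above background in the premolar. Of 17 detected neural probes, 3 were detected in the premolar, among them miR-138-5p-826.

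The lists of broadly expressed miRNAs held probes on both sides of 0. The median was -0.01 for 26 detected probes of the miR-17 cluster, -0.02 for 13 of miR-30, 0.03 for 6 of miR-29 and -0.12 for 9 of miR-130 and miR-301, with many members near background. Single probes ran from -0.68 to 0.31 in the miR-17 list and from -0.23 to 0.63 in the miR-30 list. Of 13 detected probes of miR-23, miR-24 and miR-27, 12 had ratios below 0 (56.1% over all 647 detected probes), with a median of -0.15. Only 7 of the 13 were detected in the premolar. The lowest were ssc-miR-27b (-0.65 ± 0.11) and ssc-miR-23a (-0.58 ± 0.18). None of these lists held a probe past the 2-fold rule, which 3.4% of all 647 met.

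**Figure D3:**
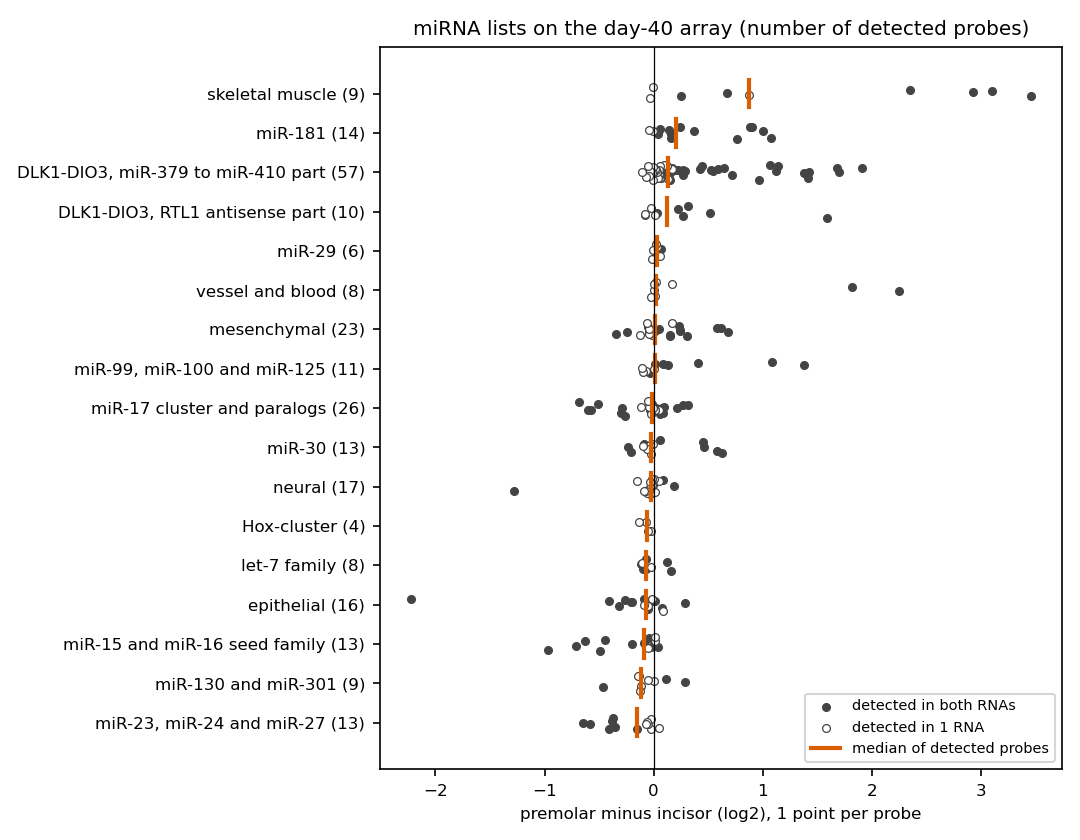
Premolar minus incisor log2 ratio (horizontal axis) of each detected probe in 17 miRNA lists, ordered by median (orange bar), with the number of detected probes in brackets. Filled points were detected in both RNAs and open points in 1. The muscle list has the highest median, 0.87, and many DLK1-DIO3 probes lie right of 0.

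The array of the same tooth types at day 60 gave another pair of RNAs with the dyes the same way round. There, 25 of 474 detected probes were higher in the premolar (5.27%) and 2 lower (0.422%) by the same rule, together 5.7%. Of the 18 probes higher on day 40, 9 were higher on day 60 too, which is 50% of the day-40 and 36% of the day-60 calls. A day-60 ratio above 0 was found for 17 of the 18, against 52.5% of all probes detected on day 60. The 17 include PN-376b-3p-13138, at 0.15, which was detected in neither day-60 RNA and so is not among the probes of that share. Of the 4 lower on day 40, all had a ratio below 0 on day 60, against 47.5% of all, and 1, miR-218-5p-18206, met the rule. Both sets hold probes that overlap in sequence, so these are not counts of independent measurements. Over 471 probes detected on both arrays, the ratios had a Spearman correlation of 0.39, given as a description since the probes share arrays, dyes and related sequences.

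Day-60 ratios were 3.01 for ssc-miR-133b and 2.65 for ssc-miR-133a. Of the dimmer muscle probes, ssc-miR-206 had 1.46, PN-1-3p-13186 had 1.37 and ssc-miR-133a* had -0.03. The DLK1-DIO3 probes past the rule on day 40 differed in what day 60 showed. There PN-377-3p-18696 had 3.84, PN-300-3p-13997 had 3.04 and ssc-miR-127 had 1.61, all past the rule. Short of it on day 60 were PN-485-3p-375 at 0.88, PN-376c-3p-2496 at 0.69 and PN-411-5p-771 at 0.17, and PN-376b-3p-13138 was detected in neither day-60 RNA. For ssc-miR-504 the day-60 ratio was 2.07. Also short of the rule on day 60 were miR-126-3p-3530 at 0.19, miR-451-5p-792 at 0.31 and ssc-miR-125b at 0.47. PN-203-3p-308 had a day-60 ratio of -0.26, and miR-138-5p-826 of -0.61.

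**Figure D4:**
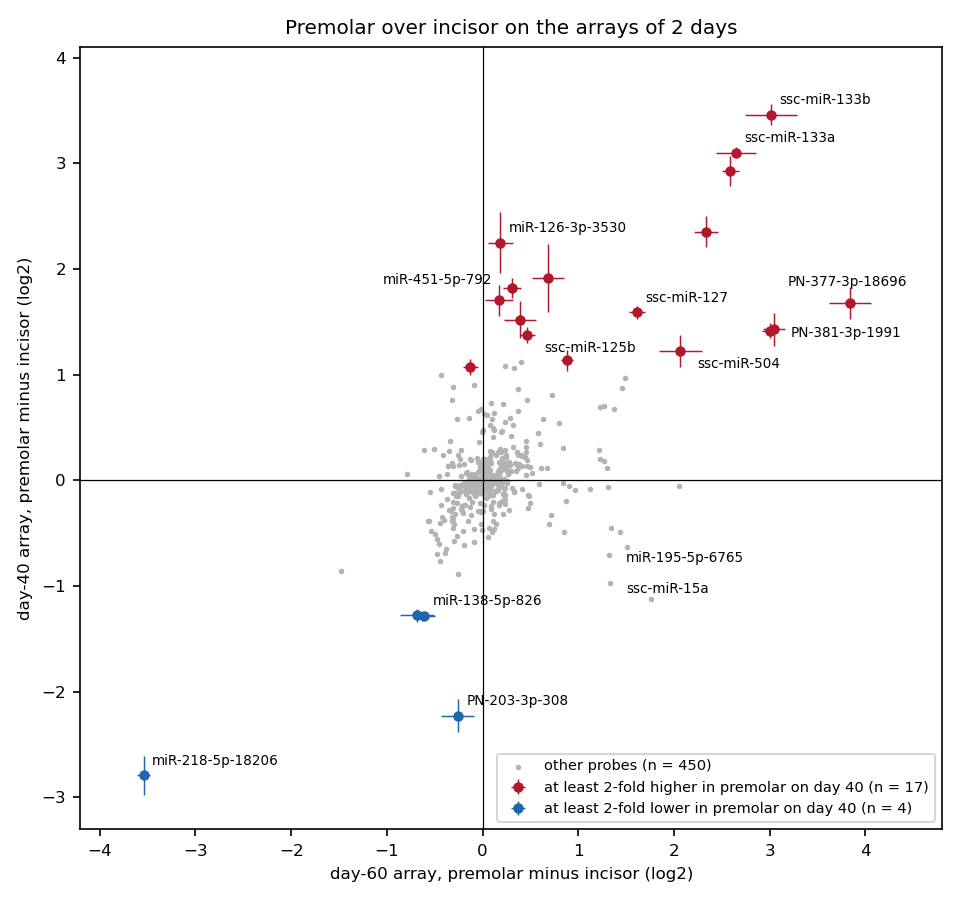
Premolar minus incisor log2 ratio on the day-40 array (vertical axis) against the day-60 array (horizontal axis), for probes detected on both arrays, with SDs over 4 spots for the probes past the 2-fold rule on day 40. The miR-133 probes lie far from 0 on both axes, miR-126 and miR-451 lie far from 0 only on the day-40 axis, and ssc-miR-15a and miR-195-5p-6765 lie in the lower right.

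The premolar RNA of day 50 was stained with Cy3 and hybridised against day-60 canine, so that the premolar lay in the other dye and both the day and the tooth type of its partner differed. Of the 18 probes, 12 were higher in that premolar and 6 lower. The share of all probes above 0 on that array is not given here. The 18 hold the 4 overlapping miR-133 probes and the overlapping PN-300-3p-13997 and PN-381-3p-1991, so these are not counts of independent measurements. The 4 miR-133 probes were higher there as well, with ratios of 3.09 for ssc-miR-133b and 2.87 for ssc-miR-133a, and the part of the dye was not tested. Premolar was also higher for ssc-miR-127 at 1.27, PN-381-3p-1991 at 2.80 and PN-485-3p-375 at 1.37. The opposite sign, at 2-fold or more in all 4 spots, appeared for miR-126-3p-3530 at -1.21, miR-451-5p-792 at -1.65, PN-377-3p-18696 at -1.60 and miR-181c-5p-1684 at -2.19. All 4 probes lower in the day-40 premolar were higher in the day-50 premolar than in the day-60 canine, at 1.35 for PN-203-3p-308, 0.77 for miR-138-5p-826 and 0.84 for PC-138-5p-9675. For miR-218-5p-18206, not well above background in the canine, the premolar was at least 2.97-fold higher. In these 4 the Cy5 column was the lower on all 3 arrays. On a further array, incisor in Cy5 (headed day 50) was set against day-50 canine. There, incisor minus canine was 0.87 for miR-138-5p-826 and 0.79 for PC-138-5p-9675. It was -0.03 for PN-203-3p-308 and -1.18 for miR-218-5p-18206. The part of the dye was not tested.

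**Figure D5:**
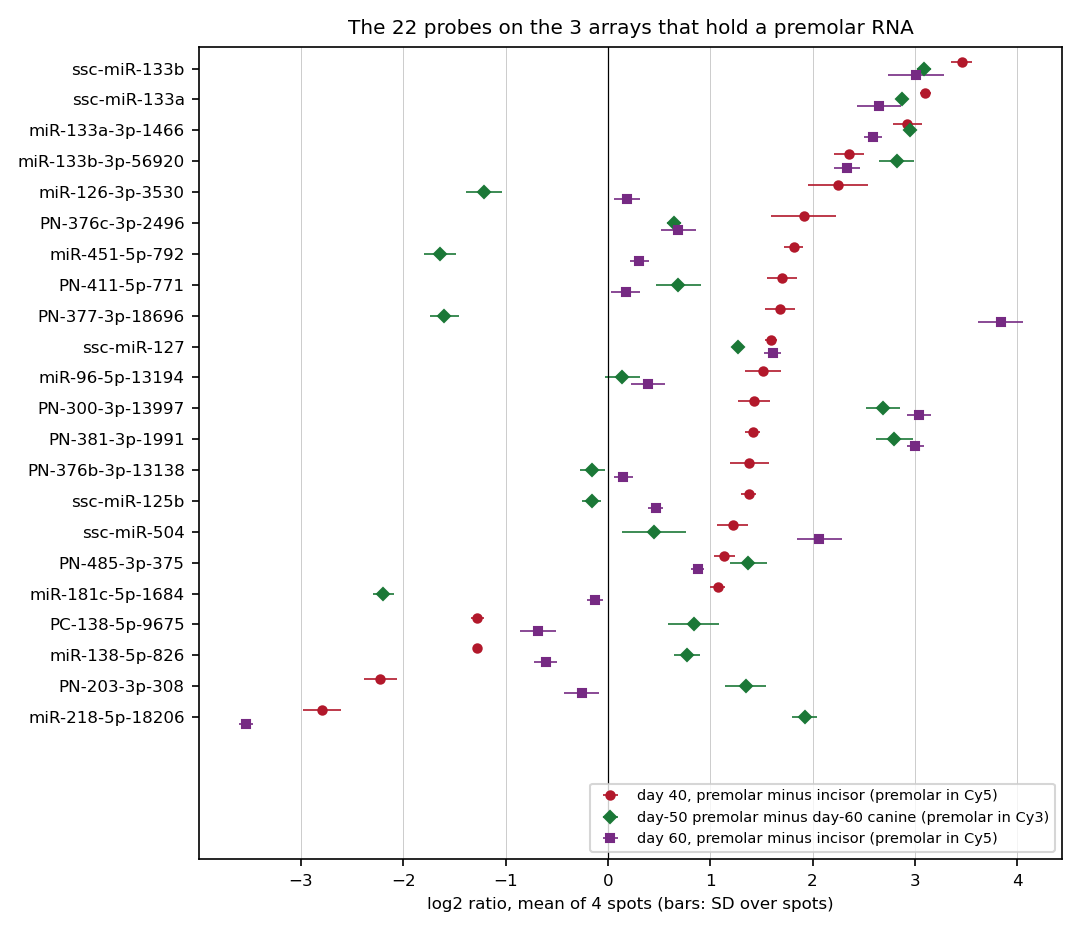
Log2 ratios (horizontal axis, means of 4 spots, bars SDs) of the 22 probes on the 3 arrays that hold a premolar RNA. Day-40 and day-60 premolar were set against incisor with premolar in Cy5, and day-50 premolar against day-60 canine with premolar in Cy3. The miR-133 probes are right of 0 on all 3, and the 4 lowest probes change side on the day-50 array, where miR-218-5p-18206 was not well above background in the canine.

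The called probes did not stand out in base composition. Median GC content was 47.6% for the 18 higher probes, 54.4% for the 4 lower and 50.0% for all 647, and GC content had a Spearman correlation of -0.00 with the ratio. Against the processed log2 values in the authors' deposited table, the ratios had a Pearson correlation of 0.73 across all probes, and the sign was the same for 22 of the 22 probes past the rule. The scale and centring of those deposited values are unknown.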

How the data were processed

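Per the labels' protocols, small RNAs were size-fractionated, given a poly(A) tail and a tag for Cy3 or Cy5 staining. Per the file headers, the deposited spot files hold each spot's mean density, a linear intensity without background subtraction. Commas within numbers were taken out. No source names the image software. The authors' deposited table holds processed log2 values, used as an alternative.

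Here, a surface (robust loess, span 0.3) through 716 blank spots per channel was removed with normexp (offset 50), followed by loess within the array (span 0.3, control spots at weight 0) in limma 3.58.1 and R 4.3.3. The 4 spots were averaged. Arrays were normalised separately. With 1 RNA per condition no test was made, and precision is limited by that number. The steps were tested on simulated data. Figures used matplotlib 3.10.9.

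The comparison and the miRNA lists were chosen with earlier results of these data known. Named were mature probes past the size rule, the 5 highest and 5 lowest other probes past it, list extremes, probes beside the threshold and the brightest probes. Other probes were named after their values were seen. RefSeq Sscrofa11.1 served for gene neighbours only. Alternatives covered background, offset, normalisation, spots, detection and threshold.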

Additional observations from a re-analysis of the deposited data

Results flagged for a closer look

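For 2 named probes the day-40 and day-60 arrays gave opposite signs in every spot, at 1.5-fold or more. For ssc-miR-15a, levels on day 40 were 7.45, 7.32, 7.72 and 7.53 in the premolar and 8.63, 8.30, 8.50 and 8.47 in the incisor, a ratio of -0.97, against a ratio of 1.33 on day 60. For miR-195-5p-6765, the day-40 ratio was -0.71 and the day-60 ratio 1.32. Both have the seed AGCAGCA of the miR-15 and miR-16 family, known for restraining cell cycle genes. The difference between days was not tested.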

How the results depend on the processing

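No paired analysis was possible because each condition had 1 RNA and no test was made. The direction of all 22 probes past the 2-fold rule held under the 13 alternatives, and 8 of them passed it under each: the 4 miR-133 probes, miR-126-3p-3530, miR-451-5p-792, PN-203-3p-308 and miR-218-5p-18206. The fewest, 9, kept ssc-miR-504 and PN-485-3p-375. Counts of higher probes were 18 to 19 and of lower probes 4 to 5 on leaving out each spot. Leaving out a spot cannot remove a probe by its ratio, since the rule needs every spot. Taking the median of the spots leaves the rule unchanged. Those alternatives, counted among the 13, therefore do not test the calls or their direction. Higher and lower counts were 32 and 8 with the blank median subtracted, 10 and 2 with an offset of 200, 6 and 30 without normalisation (which put the median of all probes at -0.52), 66 and 43 with the authors' deposited values (no spots), and 33 and 11 at 1.5-fold. Counts on both days were 4 higher and 2 lower without normalisation and 23 and 6 with the authors' deposited values. List medians relative to all detected probes moved as follows. With the blank median subtracted, muscle was 1.74, miR-181 0.50, and both DLK1-DIO3 parts, miR-130 and miR-23 were 0. The floor of 20 in that setting gives probes dim in both RNAs equal values, so a median of 0 there is not informative. Without background removal muscle was 0.63. With an offset of 20, muscle was 1.36 and miR-130 -0.20. With an offset of 200, muscle was 0.32, the RTL1 antisense part 0.0484, the miR-379 part 0.0542, miR-15 -0.16, miR-130 -0.0312 and miR-181 0.0835. With median centring or no normalisation, miR-15 was -0.36 and miR-23 -0.30. With the authors' values, muscle was 4.14, the RTL1 antisense part 0.79, the miR-379 part 0.81, epithelial -0.22, miR-130 -0.40, miR-181 0.39, miR-30 -0.16, miR-23 -0.55, vessel and blood 0.64, neural -0.28 and Hox-cluster -0.79. Alternatives chosen after seeing the data used probes detected in both RNAs, a filter that the premolar level decides (muscle 2.60, RTL1 antisense 0.25, miR-379 part 0.39, epithelial -0.19, mesenchymal 0.15, miR-15 -0.37, miR-30 0.21, miR-23 -0.43, vessel and blood 1.99, neural 0.0423; 18 higher and 3 lower) or left out PN probes (muscle 1.63, miR-379 part 0.73). Other causes of these moves were not tested. Ratios of probes near background are limited by the offset.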

Other observations

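Of the 12 detected probes with the seed AGCAGCA, 10 had a ratio below 0 on day 40 (56.1% over all 647 detected probes), from -0.97 to 0.04 with a median of -0.14. On day 60, 10 of them were detected and all 10 had a ratio above 0 (52.5% over all detected probes), with a median of 1.15. Some members lay at 0 within their spot SD on day 40, as ssc-miR-497 at -0.02 ± 0.10 and ssc-miR-15b at -0.04 ± 0.08. The brightest, ssc-miR-16, had levels of 13.38, 13.16, 13.39 and 13.41 in the day-40 premolar and 13.56, 13.47, 13.49 and 13.60 in the day-40 incisor, a ratio of -0.19, and a ratio of 0.87 on day 60. PC-15a-5p-46278, whose 19 bases lie within ssc-miR-15a, had ratios of -1.12 on day 40 and 1.76 on day 60. These probes share sequence, and were looked at after their values were seen.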
